A study of Bos indicus and Bos taurus with 17 samples.

Results

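The genes described here are sensors, effectors and chaperones of the unfolded protein response (UPR) of the endoplasmic reticulum (ER). They were taken as a list of names for their role in the pathway, by a rule with no threshold on measured values, and are XBP1, HSPA5, ATF4, DDIT3, ERN1, ATF6, DNAJB9, HSP90B1, PDIA4 and CALR. Of these 10 genes, 9 were found, each in 1 entry, among 21631 distinct gene names, and no entry with the name HSPA5 was found. HSPA5, which encodes the chaperone BiP, was therefore not analysed here. The 9 genes had at least 1 FPKM in all 6 groups, and 0 of their 54 values was listed at 0.

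RNA was sequenced from mammary epithelial cells (MEC) of Kashmiri and Jersey cattle, caught from milk with beads carrying an antibody to keratin 18. The labels name 17 samples: 3 for each breed at stage 1 (D15, March), stage 2 (D90, July) and stage 3 (D250, December), except 2 for Jersey at D90. D is the day in milk, and the days were assigned to the stages in the order in which the study gives them. The labels name no treatment or age and give lactation number 2 for all samples of Kashmiri D90 and Jersey D250, and 2 or 3 within the other groups. The study instead describes 3 cows of each breed, all in lactation number 3, with milk taken on each of the 3 days. By that account the days of a breed share cows and are not independent groups. Each stage was sampled in a single month, so season and stage of lactation cannot be told apart.

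Levels are in FPKM, the authors' count of fragments scaled by transcript length and by library size, with 1 value for each breed and day. Where 3 values follow each other they are those of D15, D90 and D250 in turn. There are no values per cow here, so no error and no test can be given for any difference, and 1 cow could carry a group value. The table of FPKM holds no read counts, so the counting error of a value cannot be given. A log2 ratio below has a pseudocount of 1 FPKM, a fold has none, and a gene is counted as past the limit when its log2 ratio is at least 1 in either direction and it has at least 1 FPKM in either group.

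Cells that secrete much protein fold it in the ER, and a load of unfolded protein is read by membrane sensors. ERN1 (the kinase and RNase IRE1) splices the XBP1 messenger RNA, ATF6 is cut to release a transcription factor, and EIF2AK3 (the kinase PERK) slows translation while favouring that of ATF4. XBP1 and ATF6 are known to raise ER chaperones and degradation factors, whereas ATF4 raises genes of amino acid supply and DDIT3, which encodes CHOP, a factor tied to cell death under lasting stress. The secretory epithelium of the lactating gland is known for abundant ER. FPKM of a gene do not tell spliced from unspliced XBP1, nor an active from an inactive sensor.

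The 9 genes spanned a wide range of levels. ATF4 had the highest mean over the 6 groups, 849 FPKM, followed by CALR with 302, XBP1 with 197, HSP90B1 with 173, DDIT3 with 105 and PDIA4 with 70.9 FPKM. DNAJB9 with 9.57, ATF6 with 8.40 and ERN1 with 1.99 FPKM were the lowest. FPKM is per length, so these levels can be set beside each other, although no spread is known with which to separate neighbours in the order.

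The members followed different courses over lactation. ERN1, ATF6 and DNAJB9 were lowest at D15 and highest at D250 in both breeds. XBP1, HSP90B1 and CALR were highest at D90 in both breeds. ATF4 went down from day to day in Kashmiri cattle and up in Jersey cattle, DDIT3 was highest at D90 in Kashmiri and at D250 in Jersey cattle, and PDIA4 was highest at D90 in Kashmiri and at D15 in Jersey cattle. This grouping was made after the values were seen. For comparison, 9.51% of the 8568 names with at least 1 FPKM in all groups went up from D15 to D90 to D250 in both breeds, 8.05% were highest at D90 in both breeds, and 1.30% went down in Kashmiri and up in Jersey cattle. With FPKM rescaled by the upper quartile of each group, or to the sum of all named genes but the milk protein genes, ERN1, ATF6 and DNAJB9 kept their course and so did XBP1 and CALR, whereas HSP90B1 kept it only with the upper quartile and ATF4 with neither. PDIA4 was highest at D90 in both breeds with either rescaling, and DDIT3 was so with the sum. The opposite courses, down throughout or lowest at D90 in both breeds, held for 9.37% and 13.1% of names and for 0 of the 9 members.

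**Figure D1:**
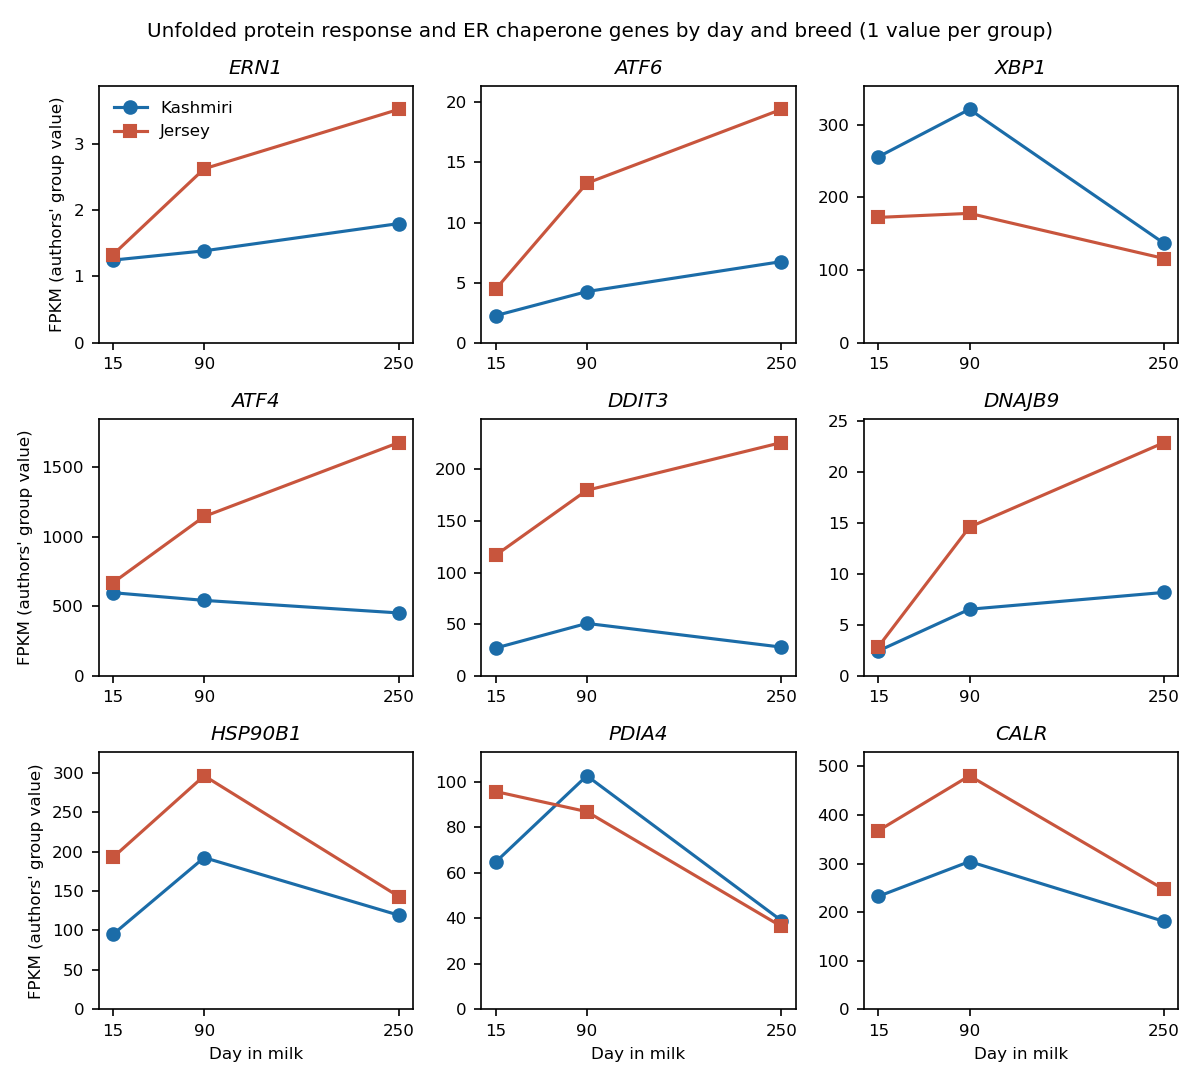
FPKM (vertical axes, from 0, 1 scale per gene) of the 9 genes against the day in milk, with circles for Kashmiri and squares for Jersey; each point is the authors' single value for a breed and day, so there are no error bars. ERN1, ATF6 and DNAJB9 climb from D15 to D250 in both breeds, XBP1, HSP90B1 and CALR have their highest value at D90 in both, and ATF4 and DDIT3 separate the breeds most at D250.

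Among the sensors, ERN1 had 1.25 FPKM, then 1.39 and 1.80 FPKM, in the Kashmiri groups and 1.33, 2.63 and 3.53 FPKM in Jersey cattle. The breeds lay close together at D15, and Jersey D250 was the highest group. ERN1 stayed within the limit in all 9 comparisons, the nearest to it being Jersey D250 over D15 with a log2 ratio of 0.96. At such levels the pseudocount weighs heavily: the fold without it was 2.65 in that comparison, and with a pseudocount of 0.1 FPKM ERN1 was past the limit there.

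ATF6 had 2.25, 4.25 and 6.75 FPKM in the Kashmiri groups and 4.45, 13.3 and 19.4 FPKM in Jersey cattle. Every Jersey value was above the Kashmiri value of the same day. From D15 to D250 the fold was 3.00 in Kashmiri and 4.37 in Jersey cattle, with log2 ratios of 1.25 and 1.91. Set against the Kashmiri level of the same day, the Jersey level had log2 ratios of 0.75, 1.44 and 1.40. The ratio of ATF6 to ERN1 within a group, which no rescaling of a group changes, was 1.80, 3.06 and 3.75 in Kashmiri and 3.34, 5.05 and 5.51 in Jersey cattle.

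DNAJB9 encodes ERdj4, an ER co-chaperone of BiP, and is a known target of XBP1. It had 2.44, 6.53 and 8.18 FPKM in Kashmiri and 2.85, 14.6 and 22.9 FPKM in Jersey cattle. The breeds were alike at D15 and apart later, and the span of 9.37-fold from the lowest to the highest group was the widest of the 9 genes. The log2 ratio of D90 over D15 was 1.13 (Kashmiri) and 2.02 (Jersey), and that of D250 over D15 was 1.42 and 2.63. Its course was not that of XBP1: DNAJB9 over XBP1 within a group went from 0.00955 to 0.0203 and 0.0598 in Kashmiri cattle and from 0.0165 to 0.0819 and 0.197 in Jersey cattle.

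XBP1 had 256, 321 and 137 FPKM in the Kashmiri groups and 172, 178 and 116 FPKM in Jersey cattle. It was the only one of the 9 genes below the Kashmiri level in Jersey cattle on all 3 days, as were 31.3% of the 8568 names. The log2 ratios of the Jersey to the Kashmiri level were -0.57, -0.85 and -0.24 in the order of days, none of them past the limit. In Kashmiri cattle, D250 over D90 had a log2 ratio of -1.23, past the limit, and the same ratio in Jersey cattle was -0.62. By rank, XBP1 lay between percentile 94.5 and 97.8 of the names with at least 1 FPKM in every group except Jersey D250, where it lay at 90.4.

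The names whose log2(FPKM + 1) was most like that of XBP1 over the 6 group values were ENSBTAG00000003261 (Pearson r = 0.98), PTTG1IP (r = 0.96) and TRIM26 (r = 0.95), out of 8568 names. The 6 values share their scaling and were each made from 2 or 3 libraries, and many names reach a high r over so few points. PTTG1IP had 91.5, 127 and 53.4 FPKM in the Kashmiri groups and 59.9, 50.7 and 43.0 FPKM in the Jersey groups.

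ATF4 had 599, 543 and 453 FPKM in the Kashmiri groups and 670, 1147 and 1679 FPKM in Jersey cattle. The breeds were near each other at D15, with a fold of 1.12, and far apart at D250, with a fold of 3.71. The log2 ratio, Jersey over Kashmiri, was 0.16, 1.08 and 1.89. From D15 to D250 it was -0.40 in Kashmiri and 1.32 in Jersey cattle, a difference of 1.72 between the breeds that could not be tested. After rescaling to the sum without milk protein genes, the Kashmiri ratio took the other sign, 0.61. ATF4 lay between percentile 98.36 and 99.30 of names in the 6 groups.

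DDIT3 had 26.9, 50.8 and 27.8 FPKM in the Kashmiri groups and 117, 180 and 226 FPKM in the Jersey groups. The lowest Jersey value was 117 FPKM and the highest Kashmiri value 50.8 FPKM, so that the breeds did not overlap. The share of all names without overlap was not counted. Of the 8568 names, 27.2% were higher in Jersey cattle on all 3 days. DDIT3 was the member with the largest breed difference on each day, with folds of the Jersey to the Kashmiri level of 4.34, 3.54 and 8.12 and log2 ratios of 2.08, 1.80 and 2.98. Its rank among names went from percentile 74.7, 87.5 and 81.4 in Kashmiri cattle to 92.2, 94.5 and 94.4 in Jersey cattle.

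HSP90B1 encodes GRP94, the HSP90 of the ER. It had 94.96, 193 and 119 FPKM in the Kashmiri groups and 193, 297 and 143 FPKM in Jersey cattle. The D90 value was the highest in each breed. For D90 over D15 the log2 ratios were 1.01 (Kashmiri) and 0.62 (Jersey), and for D250 over D90 they were -0.69 and -1.05.

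CALR encodes calreticulin, a lectin chaperone that also binds calcium in the ER. It had 232, 304 and 181 FPKM in the Kashmiri groups and 368, 481 and 246 FPKM in the Jersey groups. No ratio of CALR was past the limit in the 9 comparisons, the largest in size being -0.96 for D250 over D90 in Jersey cattle. HSP90B1 over CALR was among the steadiest ratios between members, between 0.409 and 0.661 in the 6 groups.

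PDIA4 encodes ERp72, a protein disulfide isomerase. It had 64.7, 103 and 39.0 FPKM in the Kashmiri groups and 95.8, 86.9 and 36.4 FPKM in the Jersey groups. Both D250 values were below every earlier value, and D250 over D90 had log2 ratios of -1.38 (Kashmiri) and -1.23 (Jersey). After rescaling to the sum without milk protein genes, Kashmiri D250 over D15 went from -0.72 to 0.27. Kashmiri D250 over D90 was then no longer past the limit. Between the breeds its log2 ratio was 0.56, -0.24 and -0.10 on the 3 days.

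The stress effector DDIT3 and the folding genes thus had unlike levels in the same groups. DDIT3 over XBP1 was 0.105, 0.158 and 0.204 in the Kashmiri groups and 0.677, 1.01 and 1.95 in Jersey cattle. DDIT3 over PDIA4 was 0.416, 0.495 and 0.714 in Kashmiri and 1.22, 2.07 and 6.21 in Jersey cattle. The lowest Jersey value lay above the highest Kashmiri value for both ratios, and also for DDIT3 over HSP90B1 (0.606 against 0.283) and DDIT3 over CALR (0.318 against 0.167). How many other pairs of genes are separated in this way was not counted. DDIT3 over ATF4 ranged from 0.0450 to 0.0935 in Kashmiri and from 0.135 to 0.174 in Jersey cattle. Such ratios within a group do not depend on how the groups were scaled.

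**Figure D2:**
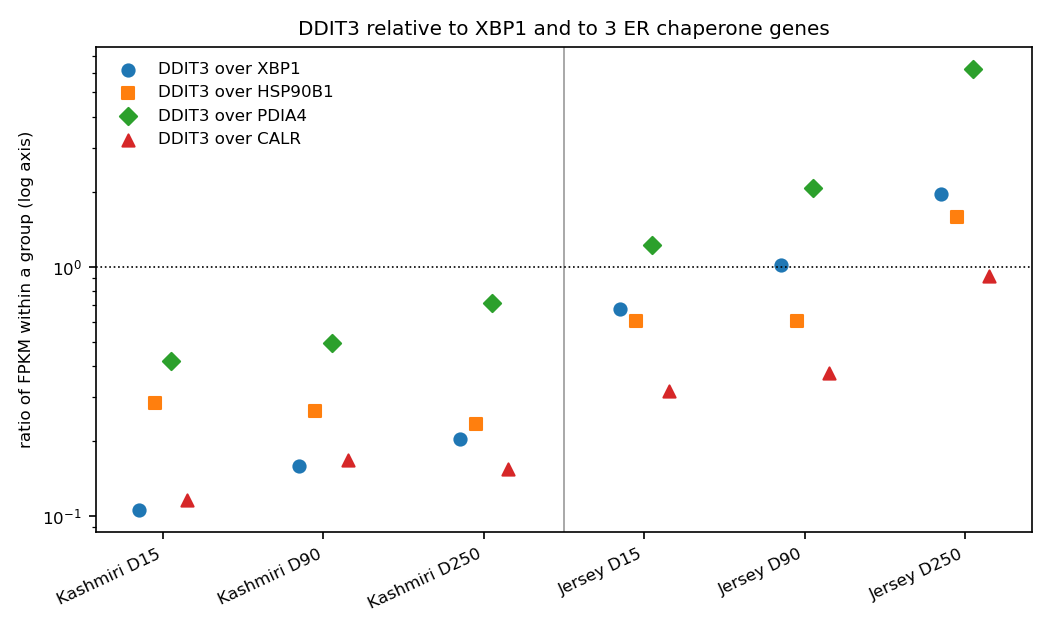
Ratio of the FPKM of DDIT3 to that of XBP1, HSP90B1, PDIA4 and CALR within each breed and day (log axis; dotted line at 1; 1 value per group and no error bars). All ratios are below 1 in the Kashmiri groups, and each Jersey ratio lies above every Kashmiri ratio of the same pair, up to 6.21 for DDIT3 over PDIA4 at D250. How many other pairs of genes are separated in this way was not counted.

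Counted by comparison, between 2 and 4 of the 9 members were past the limit. In Kashmiri cattle, DNAJB9 and HSP90B1 were higher at D90 than at D15, 2 of 9 members, beside 14.7% of the 11297 genes tested that were higher and 18.8% that were lower. XBP1 and PDIA4 were lower at D250 than at D90, beside 8.77% of all genes tested, and 0 members were higher, beside 8.95%. ATF6 and DNAJB9 were higher at D250 than at D15, beside 11.2%, and 0 members were lower, beside 14.5%. The median log2 ratio of the members was 0.66, -0.69 and 0.05 in these comparisons and that of all genes -0.01, 0.03 and -0.04.

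In Jersey cattle, ATF6 and DNAJB9 were higher at D90 than at D15, beside 12.8% of all genes tested, and 0 members were lower, beside 16.9%. HSP90B1 and PDIA4 were lower at D250 than at D90, beside 4.22% of all genes, and 0 members were higher, beside 16.6%. From D15 to D250, ATF6, ATF4 and DNAJB9 were higher and PDIA4 was lower, beside 24.5% and 17.9% of all genes. The members' median log2 ratio was 0.62, 0.32 and 0.95, and that of all genes was -0.07, 0.15 and 0.07.

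Between the breeds, DDIT3 and HSP90B1 were past the limit as higher in Jersey cattle at D15, 2 of 9 members beside 15.9% of all genes. At D90 and at D250 they were ATF6, ATF4, DDIT3 and DNAJB9, 4 of 9 members on each day beside 17.0% and 22.8% of all genes. On the 3 days, 0 members were past the limit as lower, beside 13.0%, 15.9% and 11.7%. Without a limit of size, 7 of 9 members, all but XBP1 and PDIA4, were higher in Jersey cattle on all 3 days, as were 27.2% of names, and with FPKM rescaled by the upper quartile or to the sum these were 4 and 5 of 9. The members' median was 0.56, 0.66 and 0.69, and that of all genes -0.13, -0.03 and -0.10.

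With a limit of 2 in place of 1, in either direction, DNAJB9 was the member left for Jersey D90 over D15, beside 6.76% of all genes, and for Jersey D250 over D15, beside 12.6%. DDIT3 was the member left between the breeds at D15, beside 8.57% of all genes, and at D250, beside 12.3%. The other comparisons held 0 members past it, beside 7.50%, 1.98% and 4.05% of all genes in Kashmiri cattle (D90 over D15, D250 over D90, D250 over D15), 4.18% for Jersey D250 over D90 and 11.7% between the breeds at D90.

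**Figure D3:**
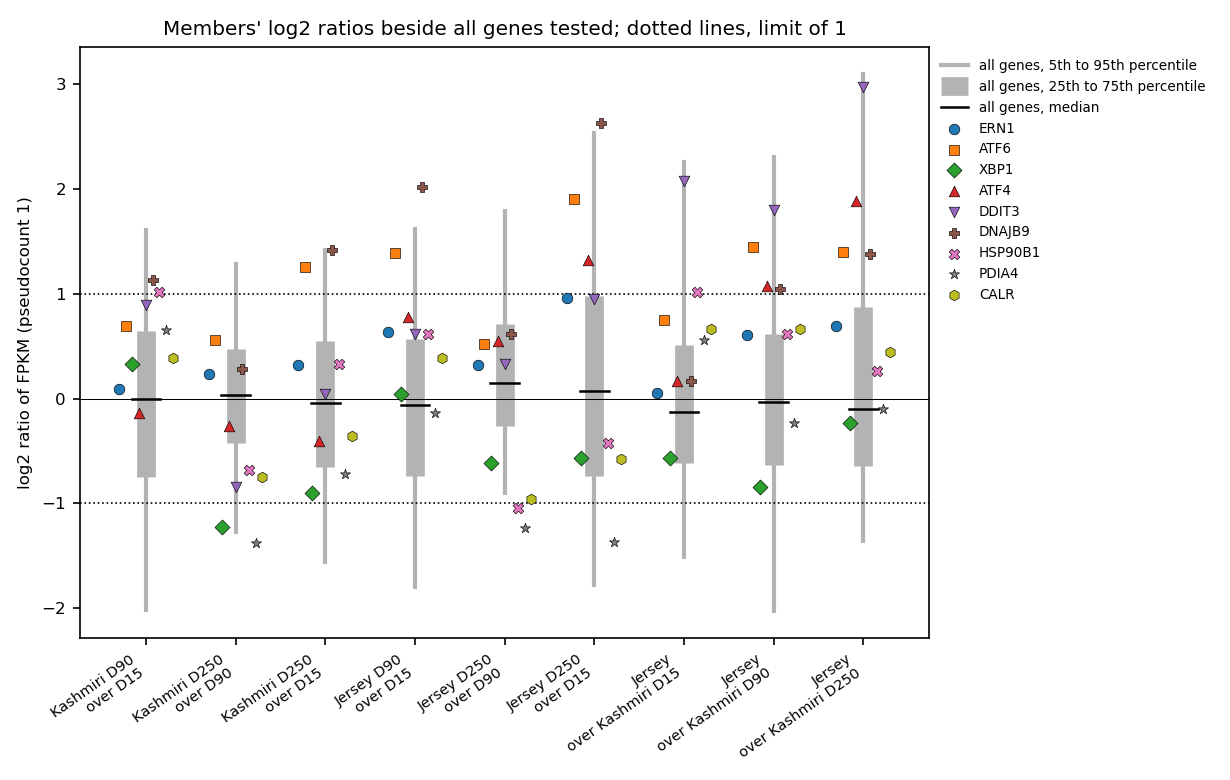
Log2 ratio (pseudocount 1 FPKM) of each of the 9 members (coloured marks) in the 9 comparisons, beside all genes tested (thick grey bar, middle 50% of genes; thin grey line, 5th to 95th percentile; black dash, median; dotted lines, the limit of 1). DDIT3 is the highest mark in each comparison of the breeds, and DNAJB9 in each comparison of D90 or D250 with D15.

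The scaling of the groups moves these numbers. The sum of FPKM over all entries was 1023150, 827916 and 533249 in the Kashmiri groups and 763302, 645410 and 900667 in the Jersey groups. Rescaling to the sum of all named genes but the milk protein genes shifted the middle of all genes' log2 ratios most for Kashmiri D250 over D15, to 0.81, and for Jersey over Kashmiri at D250, to -0.74. With it, Kashmiri D250 over D15 had 39.7% of all genes past the limit as higher and 2.63% as lower, Kashmiri D250 over D90 had 27.2% and 2.56%, and Jersey over Kashmiri at D250 had 13.9% and 37.2%. The split moved from 79.8% to 51.4% higher among the genes past the limit for Jersey D250 over D90, from 43.9% to 60.5% and from 43.1% to 59.4% for D90 over D15 in Kashmiri and Jersey cattle, from 55.1% to 75.4% for Jersey over Kashmiri at D15 and from 51.6% to 65.8% at D90. With the upper quartile it moved from 43.7% to 64.2% for Kashmiri D250 over D15, from 79.8% to 64.8% for Jersey D250 over D90 and from 66.0% to 38.2% for Jersey over Kashmiri at D250. Set against the median of all genes, the members' median for Jersey over Kashmiri differed little with the scaling: 0.68, 0.69 and 0.80 at D15, D90 and D250 as deposited, and 0.73, 0.73 and 0.90 with this rescaling. The signs that changed in comparisons of the breeds were those of HSP90B1 and CALR at D250 with either rescaling, of PDIA4 at D90 with the sum, and of ERN1 at D15 with the upper quartile. Between days, XBP1, ATF4, PDIA4 and CALR changed sign for Kashmiri D250 over D15 with the sum. ATF4 and HSP90B1 did so for Kashmiri D250 over D90, and DDIT3 for Jersey D250 over D90, also with the sum. With either rescaling, ATF4 did so for Kashmiri D90 over D15 and PDIA4 for Jersey D90 over D15.

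The wider pathway was followed in 8 lists of 97 other ER genes, of which 94 were found. The number past the limit was 9 higher and 13 lower of 89 for D90 over D15 in Kashmiri cattle and 16 higher and 13 lower of 91 in Jersey cattle. For D250 over D90 it was 3 higher and 4 lower of 89 in Kashmiri and 10 higher and 2 lower of 90 in Jersey cattle, and for D250 over D15 5 higher and 18 lower of 89 and 23 higher and 12 lower of 91. For Jersey over Kashmiri, 10 were higher and 11 lower of 89 at D15, 15 and 8 of 90 at D90, and 17 and 3 of 91 at D250. As shares, 11.2%, 16.7% and 18.7% of the list genes were higher in Jersey cattle, beside the 15.9%, 17.0% and 22.8% of all genes given above, and 12.4%, 8.89% and 3.30% were lower, beside 13.0%, 15.9% and 11.7%. Over the days, the shares higher were 10.1%, 3.37% and 5.62% in the Kashmiri comparisons (beside 14.7%, 8.95% and 11.2% of all genes) and 17.6%, 11.1% and 25.3% in the Jersey ones (beside 12.8%, 16.6% and 24.5%), in the order D90 over D15, D250 over D90 and D250 over D15. The shares lower in that order were 14.6%, 4.49% and 20.2% (beside 18.8%, 8.77% and 14.5%) and 14.3%, 2.22% and 13.2% (beside 16.9%, 4.22% and 17.9%). The direction at D250 turned with the rescaling to the sum, to 12 higher and 18 lower, and the median of the 91 genes went from 0.31 to -0.41 while staying above that of all genes.

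Beyond the members, the list of the PERK branch and of targets of ATF4 and CHOP held 13 genes. Of the 12 tested, 5 were higher and 1 lower in Jersey cattle at D250, beside 22.8% and 11.7% of all genes. With either rescaling 5 were higher and 4 lower, beside 16.5% and 26.7% of all genes with the upper quartile and 13.9% and 37.2% with the sum. PPP1R15A, which encodes GADD34, the subunit that directs a phosphatase to eIF2alpha, had 54.1, 82.1 and 43.3 FPKM in Kashmiri and 189, 412 and 914 FPKM in Jersey cattle. DDIT4, an inhibitor of mTORC1 signalling induced by several stresses, had 58.3, 52.1 and 59.3 FPKM in Kashmiri and 453, 941 and 3376 FPKM in Jersey cattle. The log2 ratio of DDIT4, Jersey over Kashmiri, was 2.94, 4.15 and 5.81 on the 3 days.

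ATF3, a stress-induced partner of this network, had 20.6, 47.5 and 36.5 FPKM in Kashmiri and 46.0, 137 and 248 FPKM in Jersey cattle. SESN2, a stress-induced sestrin, had 3.29, 7.11 and 5.86 FPKM in Kashmiri and 9.70, 22.7 and 114 FPKM in Jersey cattle. PPP1R15A, DDIT4, ATF3 and SESN2 were past the limit as higher in Jersey cattle on all 3 days. The share of all genes past it on all 3 days was not counted, and on the single days it was 15.9%, 17.0% and 22.8%. Other targets of ATF4 did not share this: TRIB3 had 13.4, 15.5 and 7.53 FPKM in Kashmiri and 11.99, 4.59 and 4.54 FPKM in Jersey cattle, and CHAC1 had 5.13, 1.59 and 2.19 FPKM in Kashmiri and 3.65, 1.11 and 2.14 FPKM in Jersey cattle. ASNS, a further target of ATF4, had 37.1, 26.02 and 33.2 FPKM in Kashmiri and 19.1, 10.7 and 21.7 FPKM in Jersey cattle. ASNS was thus lower in Jersey cattle on all 3 days. NUPR1, a small stress-response protein, had 3705, 456 and 1083 FPKM in Kashmiri and 1093, 541 and 419 FPKM in Jersey cattle, lower in Jersey by more than the limit at D15 and D250. ATF5, of the same list, had 62.9, 8.48 and 23.2 FPKM in Kashmiri and 21.0, 5.82 and 12.6 FPKM in Jersey cattle. It was past the limit as lower in Jersey at D15, with a log2 ratio of -1.54.

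Of the other sensors and membrane factors, EIF2AK3 (PERK) had 7.54, 11.99 and 9.63 FPKM in Kashmiri and 7.32, 8.66 and 16.9 FPKM in Jersey cattle. ATF6B, the paralogue of ATF6, had 12.5, 16.0 and 11.6 FPKM in Kashmiri and 24.9, 26.9 and 52.8 FPKM in Jersey cattle. CREB3L1, a membrane-bound factor related to ATF6 and found in secretory cells, had 95.2, 25.5 and 50.7 FPKM in Kashmiri and 16.8, 1.81 and 19.6 FPKM in Jersey cattle. It was the only gene of the 8 lists past the limit as lower in Jersey cattle on all 3 days, and its lowest value in each breed was at D90, where the members HSP90B1 and CALR were highest.

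Among the other ER chaperones, 10 of 11 listed genes were found. Their median log2 ratio for D250 over D90 was -0.53 in Kashmiri and -0.71 in Jersey cattle, beside -0.69 and 0.32 for the members, and the rescaling to the sum turned the Kashmiri median to 0.12, below the 0.63 of all genes. MANF, a secreted ER stress protein, was found only in an entry joined with DOCK3. That entry had 48.3, 83.1 and 45.8 FPKM in Kashmiri and 154, 178 and 98.3 FPKM in Jersey cattle. It was highest at D90 in each breed and past the limit as higher in Jersey on all 3 days. SDF2L1, which works with BiP, had 88.8, 38.1 and 20.5 FPKM in Kashmiri and 173, 74.9 and 23.1 FPKM in Jersey cattle, going down from day to day. CANX, the membrane lectin chaperone calnexin, had 43.3, 43.4 and 52.4 FPKM in Kashmiri and 61.1, 91.8 and 66.8 FPKM in Jersey cattle.

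Of the disulfide isomerases and oxidases, 10 of 11 were found, and 3 were past the limit as higher and 0 as lower in Jersey cattle at D250, beside 22.8% and 11.7% of all genes, with 2 higher and 1 lower after the rescaling to the sum, beside 13.9% and 37.2%. ERO1A, the oxidase that recharges disulfide isomerases, had 1.64, 4.28 and 7.37 FPKM in Kashmiri and 12.5, 44.0 and 40.8 FPKM in Jersey cattle, with a log2 ratio between the breeds of 2.36, 3.09 and 2.32. P4HB, the archetypal disulfide isomerase, had 328, 191 and 142 FPKM in Kashmiri and 269, 277 and 188 FPKM in Jersey cattle. PDIA3, the isomerase that pairs with calreticulin and calnexin, had 93.8, 222 and 128 FPKM in Kashmiri and 153, 252 and 203 FPKM in Jersey cattle, with its highest value at D90 as for CALR.

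For ER-associated degradation, 18 of 18 listed genes were found, and for D250 over D15 the limit was passed by 6 as higher and 3 as lower in the Jersey groups, which is 33.3% and 16.7% beside 24.5% and 17.9% of all genes, and by 1 and 2 in the Kashmiri groups, which is 5.56% and 11.1% beside 11.2% and 14.5%. EDEM1, which draws misfolded glycoproteins to degradation and is a known XBP1 target, had 15.4, 27.3 and 21.1 FPKM in Kashmiri and 30.9, 65.5 and 190 FPKM in Jersey cattle. HERPUD1, a membrane component induced in the UPR, had 61.2, 72.5 and 55.7 FPKM in Kashmiri and 74.6, 126 and 174 FPKM in Jersey cattle. SEL1L, the adaptor of the ligase SYVN1, had 3.55, 5.32 and 9.14 FPKM in Kashmiri and 4.47, 12.2 and 13.8 FPKM in Jersey cattle, in the same order of days as ATF6 and ERN1.

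The translocation list, with 16 of 17 genes found, held 6 genes past the limit as lower at D250 than at D15 in Kashmiri cattle and 0 higher, beside 14.5% and 11.2% of all genes. This turned to 5 higher and 0 lower with the rescaling to the sum, beside 39.7% and 2.63% of all genes. SSR4, a subunit of the translocon-associated complex, had 2811, 1589 and 1310 FPKM in Kashmiri and 940, 369 and 728 FPKM in Jersey cattle. The 8 genes tested of the oligosaccharyltransferase list held 0 past the limit between the breeds on any day as deposited. Of all genes, 15.9%, 17.0% and 22.8% were higher and 13.0%, 15.9% and 11.7% lower at D15, D90 and D250. With the rescaling to the sum, 1 was higher at D15, beside 21.0% of all genes, and 1 lower at D250, beside 37.2%. RPN1 was listed at 0 in 5 of 6 groups. In the ER calcium list, ITPR1, a calcium release channel, had 1.31, 3.43 and 2.98 FPKM in Kashmiri and 1.24, 3.22 and 29.7 FPKM in Jersey cattle.

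**Figure D4:**
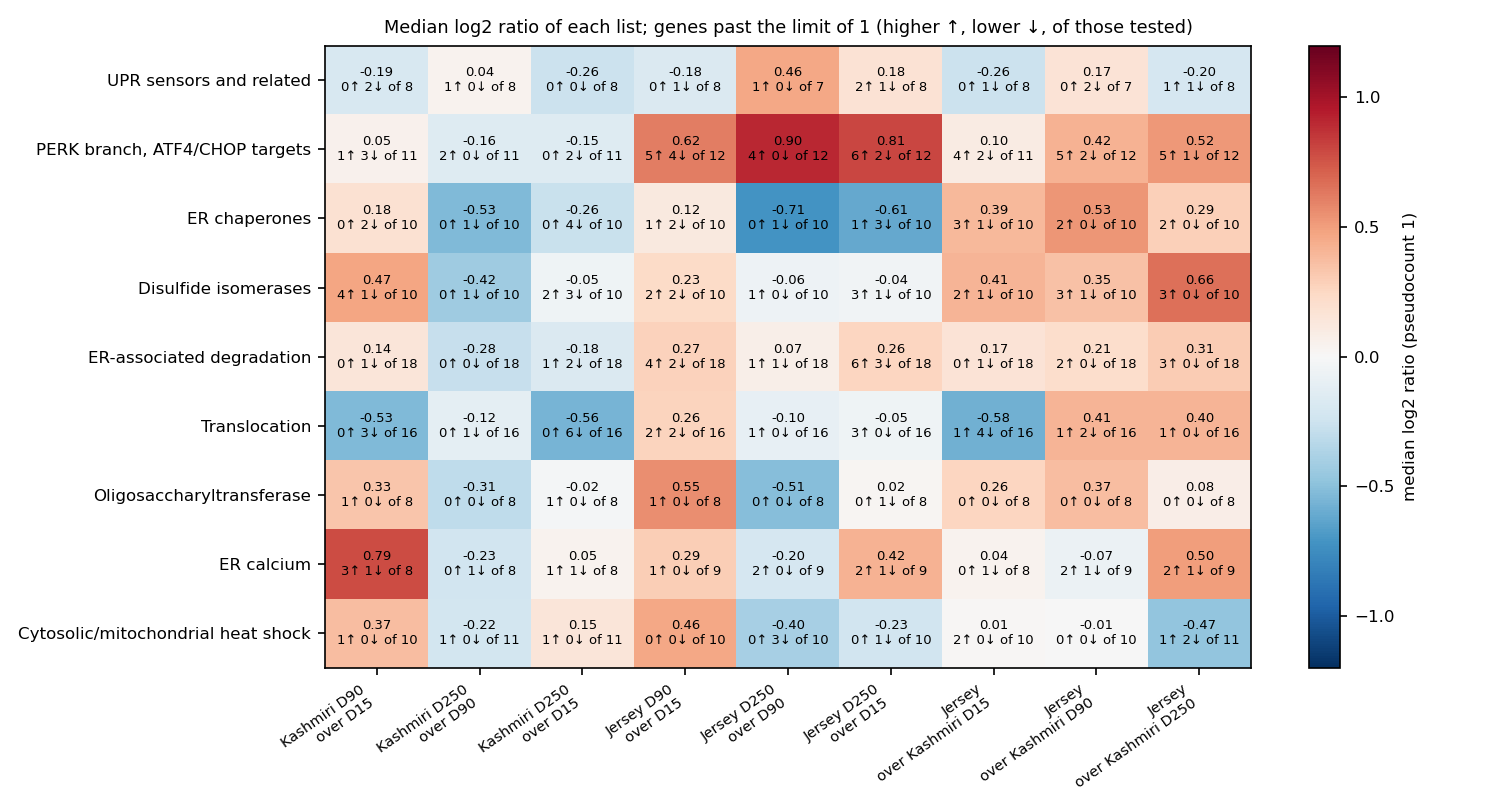
Median log2 ratio (colour and upper number, pseudocount 1 FPKM, FPKM as deposited) of 8 lists of ER genes and of a heat shock list in the 9 comparisons, with the genes past the limit of 1 as higher (up arrow) and lower (down arrow) of those tested. For Jersey D250 over D90 the list of the PERK branch and of ATF4 and CHOP targets has a median of 0.90 and the ER chaperone list one of -0.71.

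Genes of heat shock proteins of the cytosol and mitochondria were set beside the members because the days fell in different months. Of 14 listed genes 12 were found, all but HSPA1A and HSP90AB1, and DNAJB1 was listed at 0 in all 6 groups. The list also holds constitutive genes, so its medians are no measure of heat or season. Their median log2 ratio was 0.37 for D90 over D15 and -0.22 for D250 over D90 in the Kashmiri groups and 0.46 and -0.40 in the Jersey groups. HSPA8, the constitutive HSP70, had 511, 1141 and 622 FPKM in Kashmiri and 534, 1047 and 467 FPKM in Jersey cattle, so that D90 was its highest day, as for HSP90B1 and CALR. Between the breeds the heat shock median was 0.01, -0.01 and -0.47 at D15, D90 and D250, beside 0.56, 0.66 and 0.69 for the members. The difference between these medians was not tested.

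The cells in the samples bear on all of these values, since in bulk RNA fewer cells of a type and less RNA per cell cannot be told apart. KRT18, the keratin used for the capture, had 51.3, 9.13 and 11.5 FPKM in Kashmiri and 33.7, 1.59 and 4.51 FPKM in Jersey cattle. The summed level of 14 epithelial markers was lowest at D90 in each breed, with 6017, 739 and 2674 FPKM in Kashmiri and 2736, 103 and 1420 FPKM in Jersey cattle, and none of the 14 was listed at 0. The sum was thus lowest, 103 FPKM, in Jersey cattle at D90. The 14 markers leave out the milk protein genes. The study checked purity by qPCR at D90 and reports more KRT18 and casein CSN2 in the captured cells than in milk somatic cells. It reports less of LSP1, HBA and CD18, taken as markers of other cells. HSP90B1 and CALR were at their highest in Jersey cattle at D90.

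Markers of neutrophils were higher in the breed in which DDIT3 and ATF4 were higher. Of 12 listed genes 9 were found. All 9 were past the limit as higher in Jersey cattle on all 3 days, beside 15.9%, 17.0% and 22.8% of all genes. Their summed level ranged from 198 to 654 FPKM in Kashmiri and from 4950 to 14391 FPKM in Jersey cattle, and no marker was listed at 0. CSF3R, the receptor of granulocyte colony-stimulating factor, was found in an entry joined with a gene that has only an Ensembl identifier. That entry had 53.9, 61.6 and 57.2 FPKM in Kashmiri and 310.4, 469 and 2549 FPKM in Jersey cattle. The folds of the Jersey to the Kashmiri sum were 25.02, 11.7 and 22.0 in the order of days, beside folds of 4.34, 3.54 and 8.12 for DDIT3 and of 1.12, 2.11 and 3.71 for ATF4. The part of neutrophils in the results was not tested.

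The 10 macrophage markers summed to 109, 483 and 491 FPKM in Kashmiri and 1014, 2145 and 1852 FPKM in Jersey cattle. Of the 9 tested, 8, 8 and 4 were past the limit as higher in Jersey cattle, beside 15.9%, 17.0% and 22.8% of all genes. As lower, 0, 0 and 2 were past it, beside 13.0%, 15.9% and 11.7%. Those lower at D250 were C1QC with a log2 ratio of -1.02 and MSR1 with -1.06. The 10 markers of T and NK cells summed to 418, 1620 and 369 FPKM in Kashmiri and 302, 180 and 98.6 FPKM in Jersey cattle. Plasma cells are known for high XBP1, and the 7 of 8 markers of B and plasma cells that were found summed to 17.0, 84.2 and 31.8 FPKM in Kashmiri and 26.5, 12.5 and 8.90 FPKM in Jersey cattle. Their highest value fell in Kashmiri at D90, as did that of XBP1, with 3.92 FPKM for MZB1 and 11.1 FPKM for JCHAIN. Of 6 red cell genes 4 were found, which summed to less than 1 FPKM in each group, with HBB listed at 0 in 3 of the 6. The part of these cells in the results was not tested either.

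**Figure D5:**
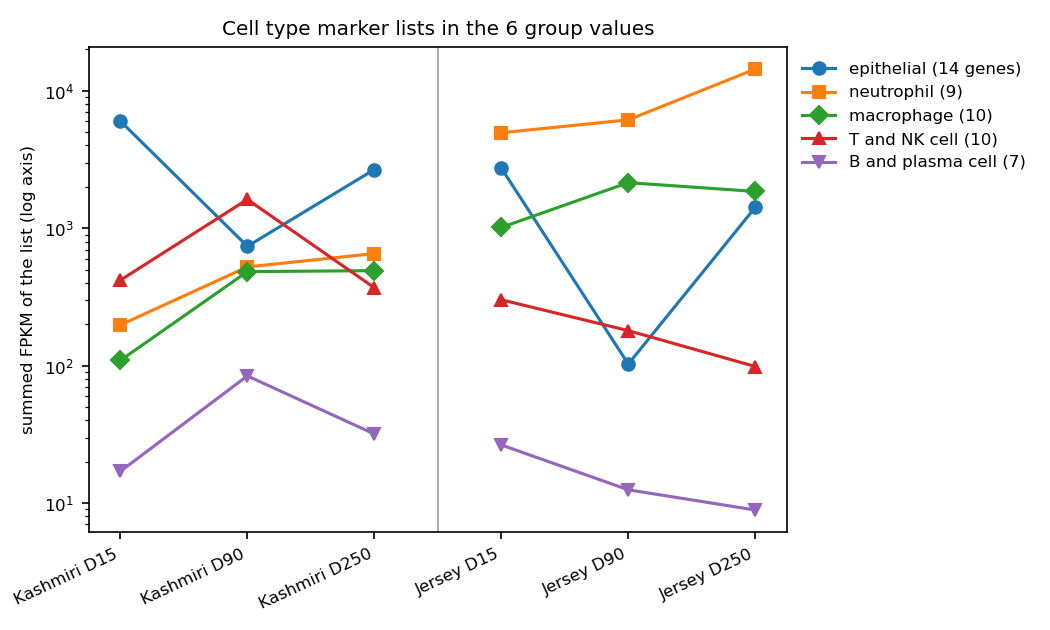
Summed FPKM (log axis) of the markers found for neutrophils, macrophages, epithelial cells, B and plasma cells, and T and NK cells in the 6 groups of breed and day, 1 value per group. Epithelial markers have their lowest sum at D90 in each breed, and the neutrophil sum is at least 4950 FPKM in Jersey and at most 654 FPKM in Kashmiri cattle.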

How the data were processed

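Per the study's methods, Trimmomatic was used for trimming, TopHat with Bowtie for alignment (cattle genome build UMD3.1), and Cufflinks with Cuffdiff for expression values. The deposited table holds the authors' FPKM, 1 value for each of 6 groups of breed and stage, in 61264 entries, of which 25121 carry a name. The columns called Local were taken as Kashmiri, the other of the 2 breeds in the labels. No values per library were used, so replicates could be neither compared nor tested, and coordinates are not given in the table used here.

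Where several entries carried 1 name, that of highest mean stood for it, and joined names were looked up by their parts. Log2 ratios with a pseudocount of 1 FPKM were computed for 9 comparisons over all names with at least 1 FPKM in either group. The genes given with values were taken from the members, up to 3 genes per list and comparison with the largest log2 ratio, the 2 with the highest mean of each list, the markers, and the 3 names most like XBP1. Not every gene under this rule is given with values. ASNS was added outside this rule as a further target of ATF4. The members and lists were chosen with earlier results of these data known. The code was tested on simulated data. Computation was in pandas 2.3.3 and numpy 2.4.6 under Python 3.11.15, and plots were drawn with matplotlib 3.10.9.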

Additional observations from a re-analysis of the deposited data

How the results depend on the processing

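No paired analysis was possible because the table gives 1 value per breed and stage, and for the same reason no replicate could be left out. Of 54 counts of members past the limit under 6 alternatives, 37 stayed within a factor of 1.5. With FPKM rescaled by the upper quartile, the members past the limit for Jersey over Kashmiri numbered 1 at D15, 2 at D90 and 2 at D250. After scaling to the sum that leaves out the milk protein genes they numbered 4 at D15 and 2 at D250 for Jersey over Kashmiri, 1 (ATF6, higher) for Kashmiri D250 over D90, 4 for Kashmiri D250 over D15 and 4 for Jersey D250 over D90. The same rescaling gave 3543 and 5043 genes of all past the limit for Kashmiri D250 over D90 and over D15, and 6188 for Jersey over Kashmiri at D250. With an absolute log2 ratio of at least 2, 1 member was left for Jersey D90 over D15 and D250 over D15 (DNAJB9) and for Jersey over Kashmiri at D15 and D250 (DDIT3), and 0 in the other 5 comparisons. In that setting, 847, 226 and 465 of all genes were past it in Kashmiri cattle (D90 over D15, D250 over D90, D250 over D15), 749, 458 and 1425 in Jersey cattle, and 960, 1317 and 1431 between the breeds at D15, D90 and D250. No member past the limit changed sign under the alternatives run. Of 324 log2 ratios of members, 290 kept their sign and stayed within 0.58, and the other 34 came from the rescalings, 29 of them from the sum. The sum of all entries of a name and the absence of a filter left every count of members as it was, and the pseudocount of 0.1 FPKM changed 1 of 9, Jersey D250 over D15, from 4 to 5 by ERN1. With no read counts in the table, counting error could not be weighed.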
